A study of Homo sapiens with 10 samples.

Results

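Metallothioneins are small, cysteine-rich proteins that hold zinc and copper ions and buffer the free metal of the cell. Their genes are induced by metals through the zinc-sensing transcription factor MTF1, which binds short metal response elements in their promoters, and several of them also respond to glucocorticoids and to oxidative stress. In the kidney, proximal tubule cells express metallothioneins and take up the protein and its metals from the filtrate. Of the 61587 genes in the count table, 7 were taken by their symbols: the metallothionein genes MT2A, MT1E, MT1F, MT1G, MT1M and MT1X, and MTF1.

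The cells were RPTEC/TERT1, a human proximal tubule epithelial line immortalised with telomerase, which was used to compare irradiated with unirradiated tubule cells. The 5 irradiated samples received 10 Gy of gamma radiation, the 5 control samples were mock-irradiated (0 Gy), and RNA of both groups was collected on day 7 and sequenced after poly-A selection. All 10 samples shared the same line, with no genetic change between groups, and a growth medium that contained hydrocortisone, a glucocorticoid, and a selenium and transferrin supplement. The labels call the cells primary and number the line from RPTEC/TERT1 to RPTEC/TERT10 along the samples, whereas the methods name RPTEC/TERT1 alone. Control and irradiated samples carry matching replicate numbers 1 to 5, and nothing in the labels says whether these were separate cultures. With replicate number as a block, p-values measure the spread of the irradiated-minus-control difference over these numbers, which may be technical. Replicates 4 and 5 were nearer to each other (chi-square per gene 15.1 in control and 8.5 in irradiated samples) than any other pair (57.1 to 213 and 40.4 to 88.5), although they differed beyond sampling noise. All of the replicates were weighted alike, and with either 4 or 5 left out the same 4 metallothioneins were called lower.

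The 6 metallothionein members lie in 1 cluster on chromosome 16 (GRCh38), where the starts of MT2A and MT1X are 73.9 kb apart. In order along the chromosome MT2A spans 56608584 to 56609497, MT1E 56625475 to 56627112, MT1M 56632659 to 56633981, MT1F 56657731 to 56660698, MT1G 56666730 to 56668065 and MT1X 56682470 to 56684196, and MT1G alone of these is on the minus strand. MTF1 lies on the minus strand of chromosome 1 from 37809574 to 37859592. The promoters below are shown because they hold the metal response elements through which MTF1 is known to act. Each is the 250 bases before the start of the gene in RefSeq (GRCh38.p14), printed 5′ to 3′, and was found for MT2A, MT1X and MTF1 among the members. The capitals mark matches on either strand to the core of the metal response element, searched as TGCACNC and TGCGCNC. No matches overlapped. MT1H, a neighbouring family member, is added because its promoter held more matches than those of MT2A and MT1X.
MT2A, chr16:56608334-56608583, plus strand: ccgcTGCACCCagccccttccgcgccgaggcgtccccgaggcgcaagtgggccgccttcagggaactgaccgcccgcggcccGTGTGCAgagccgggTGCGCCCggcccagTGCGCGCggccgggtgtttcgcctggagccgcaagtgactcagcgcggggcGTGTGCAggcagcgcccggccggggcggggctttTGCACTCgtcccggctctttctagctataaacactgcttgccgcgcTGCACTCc
MT1X, chr16:56682220-56682469, plus strand: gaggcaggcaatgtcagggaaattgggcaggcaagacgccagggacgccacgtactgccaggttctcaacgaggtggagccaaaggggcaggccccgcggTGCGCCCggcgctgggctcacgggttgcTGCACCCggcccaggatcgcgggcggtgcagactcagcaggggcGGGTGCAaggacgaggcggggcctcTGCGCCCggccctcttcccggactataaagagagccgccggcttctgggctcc
MT1H, chr16:56669564-56669813, plus strand: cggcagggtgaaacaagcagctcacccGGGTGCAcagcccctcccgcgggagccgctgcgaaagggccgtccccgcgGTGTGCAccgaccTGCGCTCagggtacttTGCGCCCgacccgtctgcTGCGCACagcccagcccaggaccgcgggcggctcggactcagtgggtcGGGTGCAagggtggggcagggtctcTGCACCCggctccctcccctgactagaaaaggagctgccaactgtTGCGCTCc
The MT2A promoter held 7 matches, 5 of TGCACNC and 2 of TGCGCNC. The MT1X promoter held 4, with 2 of each form, and the MT1H promoter held 8. Among 35116 promoter windows of the same length, 24.8% held at least 1 match, 0.37% at least 4, 0.0313% at least 7 and 0.0171% at least 8. The letters TATAAA began 29 bases before the start of MT2A and 30 bases before that of MT1X, and were not in the window before MT1H. The window before MTF1 held 0 matches, which says only that these letters are not in those 250 bases. Counts over all 10 samples were 577828 for MT2A, 10719 for MT1X and 1 for MT1H. The windows before MT1B and MT4, not shown, held 3 matches each, with 2 and 1 counts. The number of matches did not order these metallothioneins by expression, which rested on MT1H, added for its number of matches.

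Depth ranged from 66269311 to 131555873 counts per sample, and levels are given as CPM, counts scaled to a common library size, after TMM normalisation for composition. Of 10 tubule markers, LRP2 (17 counts over the 10 samples), HNF4A (12) and SLC34A1 (86) were nearly absent and were not tested. PAX8 (532.5 ± 70.3 CPM in control, SD, n = 5), ANPEP (247.5 ± 76.1) and CDH16 (245.6 ± 66.4) were abundant, as was the epithelial keratin KRT8 (1009 ± 134), whereas GGT1 (10.0 ± 2.07), CUBN (4.37 ± 0.97) and AQP1 (1.82 ± 0.27) were low. Of the 7 tubule markers tested, CDH16 (log2 fold change -0.78, adjusted p = 0.000143) and AQP1 (-0.61, adjusted p = 0.00635, edgeR) fell. Over all genes tested, the background for the counts in this paragraph, 22.7% were called lower and 23.9% higher. The summed level of 10 proliferation genes was 629.6 to 674.7 CPM in control samples 2, 4 and 5, 226.7 and 206.0 in control samples 1 and 3, and 78.21 to 127.3 in irradiated samples, and 9 of these 10 genes fell. Summed by cell type, markers of other cell types were low, and each sum was higher after irradiation, although single markers differed. The sum of 7 fibroblast markers was 15.85 to 23.46 CPM in control and 28.59 to 40.06 in irradiated samples, nearly all of it COL1A1, with 4 counts of COL3A1 in all, and 2 of 2 tested markers rose. The sum of 5 endothelial markers was 1.315 to 2.449 and 4.177 to 6.085 CPM (2 of 3 tested rose) and that of 6 leucocyte markers 0.5539 to 0.8433 and 0.8811 to 1.338 CPM (1 of 2 tested rose). Those that rose were CDH5 (means 0.60 and 3.31 CPM), PECAM1 (0.86 and 1.40) and CD14 (0.27 and 0.57). VWF (log2 fold change -0.02, adjusted p = 0.965) and PTPRC (0.27, adjusted p = 0.283, edgeR) did not pass the test. Among markers with too few counts to test, some means were higher and some, such as that of CD68, lower. The part of these differences in the results was not tested. In bulk RNA, fewer expressing cells and less RNA per cell cannot be told apart.

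MT1E, MT1F, MT1M and MT1X, all type 1 metallothioneins, were down-regulated in irradiated cells, MT1X the most, while MT2A, by far the most abundant member, did not pass the test and MTF1 was slightly higher. Of the 7 members, 6 reached the 200 counts required for testing. Of these 6, 4 were called lower against a background of 22.7% of 19006 tested genes, and 1 was called higher against a background of 23.9% (5 of 6 in either direction, against 46.6%). The median log2 fold change of the 6 was -0.68, against -0.01 over all genes tested. The members were chosen with earlier results of these data known, so these comparisons are a description. The family pseudogene MT1L, which rose, is not among them. The control and irradiated values of 3 of the 6 did not overlap, with the irradiated samples lower, which held for 12.0% of all genes tested, and 0 of the 6 lay wholly higher, against 14.6%.

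**Figure D1:**
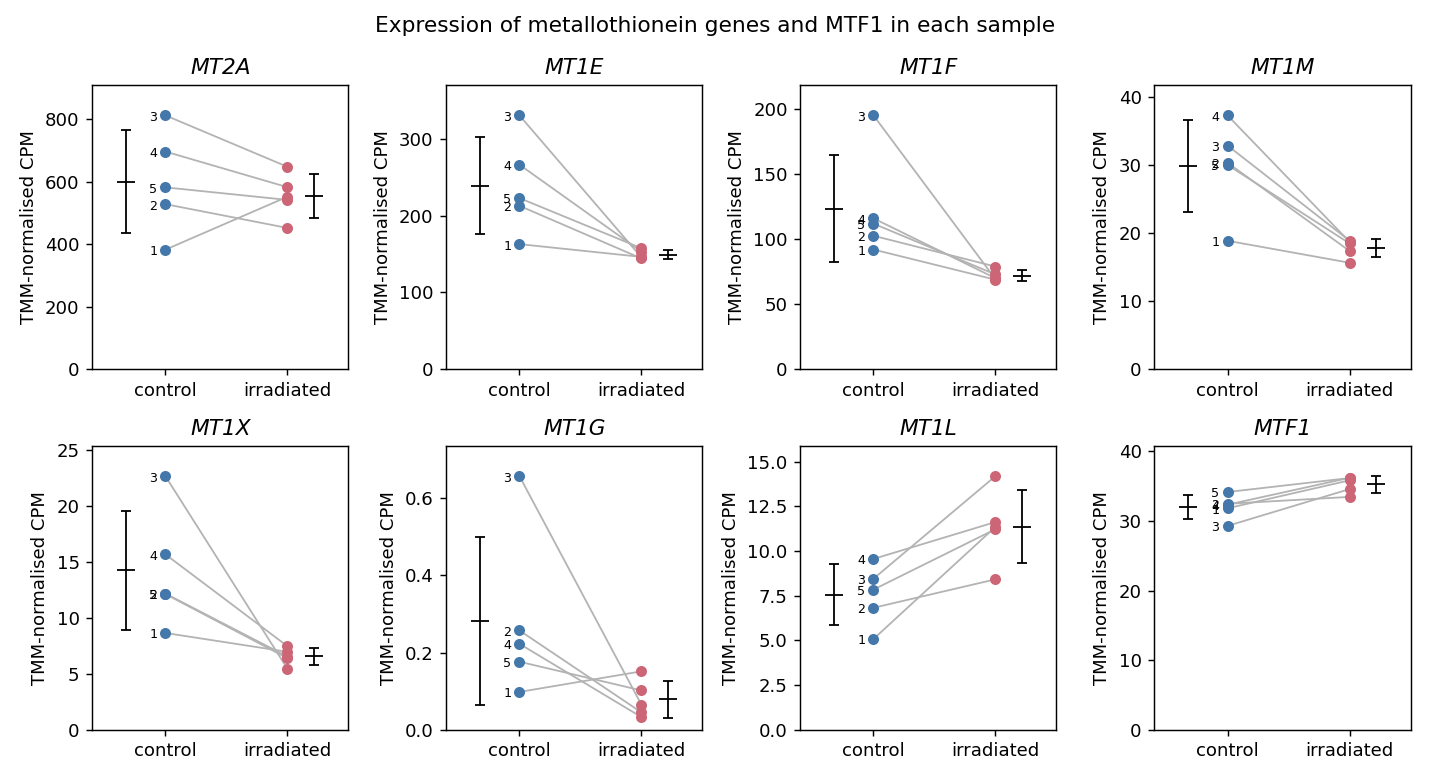
Expression of the 6 metallothionein members, the pseudogene MT1L and MTF1 in each sample, as TMM-normalised CPM on a vertical axis that starts at 0. Blue points are control samples with their replicate number, red points irradiated samples, grey lines join samples of the same number, and black bars give the mean and SD (n = 5); the irradiated values of MT1E, MT1F and MT1X all lie below the lowest control value.

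MT1E, an isoform expressed in many epithelia, was at 163.1, 213.2, 331.4, 267.0 and 223.3 CPM in control samples 1 to 5 and at 146.4, 144.4, 145.8, 153.3 and 157.7 CPM in irradiated samples 1 to 5. Every irradiated sample lay below every control sample. The means were 239.6 ± 63.2 and 149.5 ± 5.73 CPM (SD, n = 5 each), and the log2 fold change was -0.64 (SE 0.13, adjusted p = 0.00526 in edgeR's quasi-likelihood test).

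MT1F was at 91.73, 102.3, 194.8, 115.7 and 111.6 CPM in control samples 1 to 5 and at 68.54, 78.62, 68.95, 69.7 and 72.56 CPM in irradiated samples. The groups did not overlap, and control sample 3 stood well above the other controls. The log2 fold change was -0.73 (SE 0.15, adjusted p = 0.00603, edgeR).

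MT1X, another widely expressed isoform, was at 8.653, 12.14, 22.69, 15.69 and 12.18 CPM in control samples and at 6.967, 6.4, 5.459, 7.473 and 6.541 CPM in irradiated samples. The groups did not overlap, and control sample 3 was again the highest. Its level fell to 0.483 of control (log2 fold change -1.05, SE 0.21, adjusted p = 0.00553, edgeR), the largest estimated fall among the tested members. The difference was largest in replicate 3, at -2.055 on the log2 scale against -0.31 to -1.07 in the others. Of the 404 bases of the reference MT1X transcript, 165 lie under exons of a long non-coding RNA on the same strand that was listed with 0 counts, so reads from those bases may have been left uncounted in every sample.

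MT1M was at 18.87, 30.36, 32.89, 37.33 and 30.04 CPM in control samples and at 15.63, 17.37, 18.88, 18.72 and 18.48 CPM in irradiated samples. The groups met only between control sample 1 and irradiated sample 3, and within each replicate number the irradiated sample was lower. The log2 fold change was -0.72 (SE 0.10, adjusted p = 0.000805, edgeR), with the smallest standard error of the 4 genes. Each of MT1E, MT1F, MT1M and MT1X was lower in 5 of 5 pairs of samples with the same number, and each remained past the threshold in all 13 alternative analyses.

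MT1G, the minus-strand gene of the cluster, had 191 counts over the 10 samples and was not tested. Its counts were 8, 36, 66, 24 and 21 in control samples 1 to 5 and 15, 3, 6, 3 and 9 in irradiated samples. The groups overlapped through replicate 1, where the irradiated sample was the higher, and control sample 3 held 66 of the counts. When genes down to 1 count were kept, its log2 fold change was -1.73 (adjusted p = 0.00211, edgeR), and with edgeR's own filter it was -1.70 (adjusted p = 0.0309).

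MT2A, the main metallothionein of most human cells, was at 382.2, 528.2, 812.8, 696.8 and 582.0 CPM in control samples 1 to 5 and at 551.8, 451.9, 648.0, 582.6 and 541.8 CPM in irradiated samples. The groups overlapped, and the irradiated sample was lower in 4 of 5 pairs but higher in replicate 1, by 0.53 on the log2 scale. The log2 fold change over all samples was -0.08 (SE 0.12, 95% CI -0.36 to 0.20, adjusted p = 0.624, edgeR). Without replicate 1 it was -0.23 with an adjusted p of 0.0277, and without replicates 1 and 3 it was -0.21 with an adjusted p of 0.0162, so that the absence of a call for MT2A rested on replicate 1.

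MTF1, the metal-responsive transcription factor, was at 31.82, 32.47, 29.29, 32.34 and 34.16 CPM in control samples and at 35.84, 33.46, 34.58, 36.2 and 36.17 CPM in irradiated samples. It was higher in 5 of 5 pairs, with 1 irradiated sample within the control range. The log2 fold change was 0.14 (SE 0.05, 95% CI 0.03 to 0.25, adjusted p = 0.037, edgeR). The call was lost in 11 of 13 alternative analyses, in which the adjusted p reached 0.346, so the direction of MTF1 held while its call did not. Without the replicate block its adjusted p was 0.0632.

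The members differed widely in abundance. Counts over all exons of a gene were divided by the length of its reference transcript alone. MT1X levels may be too low because of the bases named above. Per kb of reference transcript, mean control levels were 1497 ± 409 CPM for MT2A (SD, n = 5), 321.2 ± 84.8 for MT1E, 289.9 ± 96.6 for MT1F, 75.1 ± 17.1 for MT1M, 35.3 ± 13.2 for MT1X, 4.03 ± 0.22 for MTF1 and 0.69 ± 0.53 for MT1G. Only MT1E with MT1F, and MT1M with MT1X, had overlapping ranges among neighbours in this order in control samples. In irradiated samples the same order held, with means per kb of 1385 ± 177 CPM for MT2A, 200.5 ± 7.68 for MT1E, 168.6 ± 9.86 for MT1F, 44.8 ± 3.41 for MT1M, 16.3 ± 1.85 for MT1X, 4.44 ± 0.15 for MTF1 and 0.19 ± 0.12 for MT1G, and the neighbouring ranges no longer overlapped.

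The make-up of the metallothionein counts, which is set within each sample and does not depend on normalisation, differed between the groups and is given as a description with no test. MT2A held 57.5% to 61.5% of the counts of the 6 genes in control samples and 64.7% to 73.0% in irradiated samples. MT1E held 23.3% to 24.5% in control samples, a narrow range, and 16.4% to 20.7% after irradiation. MT1X held 1.27% to 1.63% and 0.615% to 0.916%, which may be too low in both groups because of its uncounted bases. These 3 shares did not overlap between groups, whereas those of MT1F (10.2% to 14.0% against 7.77% to 11.3%) and MT1M (2.36% to 3.43% against 1.98% to 2.49%) did. Shares of 1 sum are tied together, so the share of MT2A can be larger without a rise of MT2A. Its level was 600.4 ± 164.0 CPM in control and 555.2 ± 71.1 CPM in irradiated samples (SD).

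**Figure D2:**
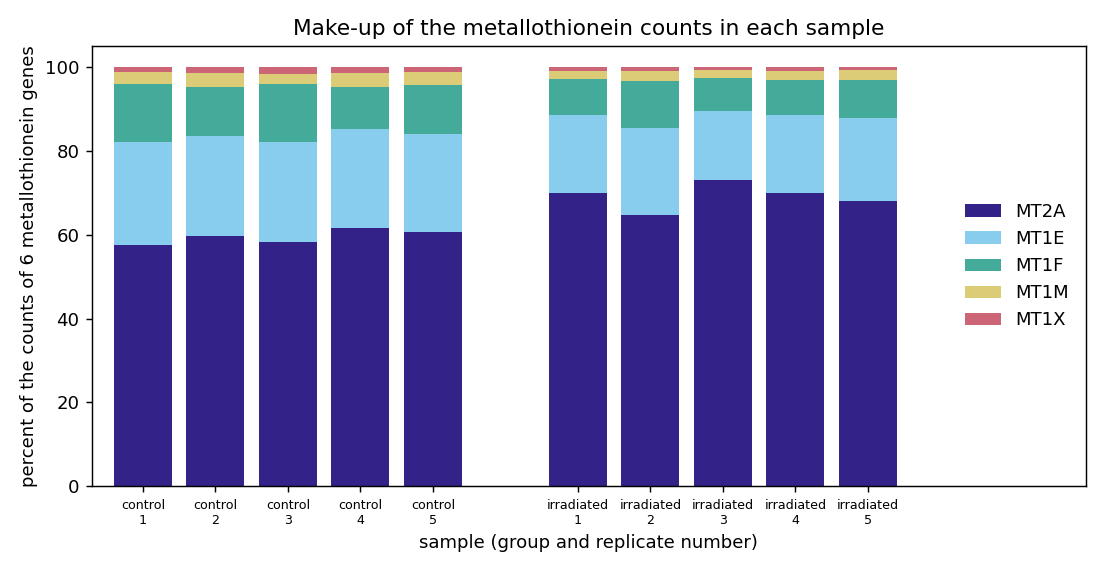
Make-up of the counts of the 6 metallothionein genes in each sample, as stacked bars in percent with 1 bar per control or irradiated sample; MT1G, at under 0.05% in every sample, is too small to see. The MT2A portion is larger in every irradiated sample (64.7% to 73.0%) than in any control sample (57.5% to 61.5%), while the level of MT2A itself was not called changed.

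The summed level of the 6 genes was 664.6, 886.5, 1395, 1133 and 959.3 CPM in control samples 1 to 5 and 789.5, 698.8, 887.1, 831.8 and 797.3 CPM in irradiated samples. The groups overlapped, with means of 1008 ± 274 and 800.9 ± 68.8 CPM (SD, n = 5 each). The spread was thus larger among controls, from control sample 1, the lowest, to control sample 3, the highest. Both of those samples had low proliferation sums (226.7 and 206.0 CPM), and in the other controls, 2, 4 and 5, these sums were 629.9, 674.7 and 629.6 CPM. The part of proliferation in the spread was not tested.

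Some of the type 1 genes had profiles over the 10 samples that were close to each other. Likeness was measured as the root mean square difference of log2 CPM centred on each gene's mean over the 10 samples, where smaller is closer. A shared difference between the groups thus counts as likeness. Among all other tested genes, MT1F ranked 5th nearest to MT1E and 4th nearest to MT1X, and MT1E ranked 6th nearest to MT1F and 9th nearest to MT1M. MT1M was less near to MT1F, at rank 394, and MT2A ranked 1627th from MT1E. In the other direction, MT1X ranked 203rd nearest to MT1F, 298th to MT1E and 743rd to MT1M. Outside the family, the nearest gene was SLC7A1 to MT1E (0.11 log2 units), ACSL1 to MT1F (0.10), LIN9 to MT1M (0.13), PHTF2 to MT1X (0.21), HNRNPKP4 to MT2A (0.16) and GTF2A2 to MTF1 (0.03). The next nearest were H4C3 and SLC25A5 to MT1E, CASP10 and SNHG18 to MT1F, CDK2 and DNMT1 to MT1M, RPS6KA5 and MGST1 to MT1X, RPLP0P9 and SEC23A to MT2A, and AKAP11 and HIF1AN to MTF1. These points share libraries and depth, and the likeness is a description.

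A further 16 genes and pseudogenes of the family were in the table, of which 14 had at least 1 count and 2 were tested. MT1L, a pseudogene between MT2A and MT1E at 56617563 to 56618680, rose, whereas MT1E beside it fell. It was at 5.072, 6.819, 8.446, 9.554 and 7.839 CPM in control samples and at 11.35, 8.414, 14.19, 11.62 and 11.22 CPM in irradiated samples. The ranges overlapped at irradiated sample 2, but the irradiated sample was higher in 5 of 5 pairs, and the log2 fold change was 0.60 (SE 0.13, adjusted p = 0.00753, edgeR). The difference was largest in replicate 1, at 1.16 on the log2 scale against 0.28 to 0.75 in the others. MT1L stayed past the threshold in all 13 alternatives, with a log2 fold change of 0.46 without replicate 1 and 0.35 without replicates 1 and 3. Against the sum of the 6 members, MT1L stood at 0.605% to 0.844% in control and 1.20% to 1.60% in irradiated samples. The near-identical sequences of the family make counts of single members uncertain, although no stretch of 100 bases of the transcripts of MT1L or the 7 members recurred in a gene elsewhere.

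The other tested pseudogene, MT2P1 (281 counts), had a log2 fold change of -0.17 (SE 0.21, adjusted p = 0.529, edgeR). The remaining family members were near the limit of detection. MT1A had 60 counts over the 10 samples, MT1XP1 92, MT1DP 39, MT1P1 36 and MT1JP 35. With genes kept down to 1 count, as for MT1G above, MT1A had a log2 fold change of 0.02 (adjusted p = 0.988, edgeR). MT3, the brain isoform, and MT1P3 had 4 each, MT1B had 2, and MT1H, MT4, the isoform of squamous epithelia, MT1HL1 and MT1CP had 1 each.

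**Figure D3:**
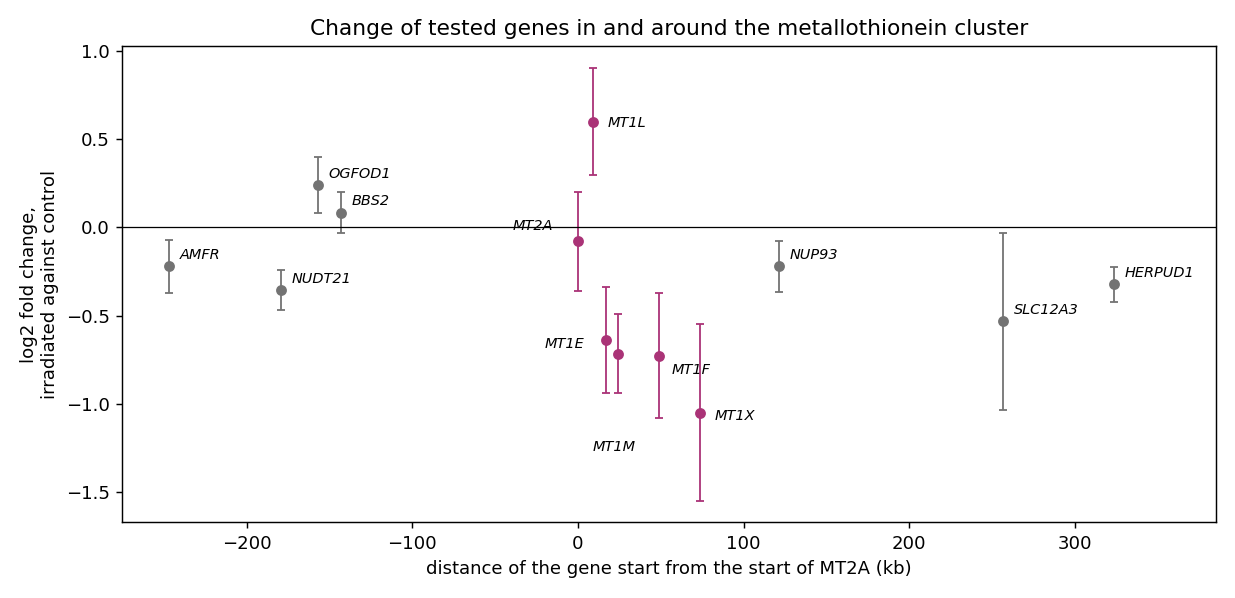
Log2 fold change of irradiated against control samples for the tested genes of the cluster (purple) and its neighbours (grey), placed by the distance of the gene start from the start of MT2A in kb, with 95% confidence intervals as bars. MT1L at 0.60 lies above 0 between MT2A at -0.08 and MT1E at -0.64, and the points of the 4 type 1 genes lie below those of the neighbours, where the wide bar of SLC12A3 (-1.03 to -0.03) reaches past them in part.

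Genes on both sides of the cluster were also examined. Of 7 tested neighbours, 4 fell and 1 rose, with a median of -0.22, against the background of 22.7% of genes called lower and 23.9% called higher, and without replicate 4 or 5 the count that fell was 2. SLC12A3, the thiazide-sensitive sodium chloride cotransporter, named after its values were seen, had a fold change near that of MT1E (log2 fold change -0.53, 95% CI -1.03 to -0.03) but did not pass the test (adjusted p = 0.0778). Whether neighbours and type 1 genes differed was not tested. NUDT21, a subunit of the mRNA cleavage factor, fell by 0.36 on the log2 scale (adjusted p = 0.000866), and HERPUD1, an endoplasmic reticulum stress protein, by 0.32 (adjusted p = 0.000738, edgeR). OGFOD1, a prolyl hydroxylase acting on the ribosome, was higher by 0.24 (adjusted p = 0.0242), a call lost in 4 of 13 alternatives.

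Zinc transporters move the metal that metallothioneins hold. Of 7 tested SLC30 genes, which move zinc out of the cytosol, 2 rose and 0 fell, against 23.9% and 22.7% of all genes tested. Their median log2 fold change was 0.12, and without replicate 3 the count that rose was 4. SLC30A7, of the Golgi, rose from 37.6 ± 4.58 to 52.2 ± 4.54 CPM (log2 fold change 0.48, adjusted p = 0.00129), and SLC30A6 from 35.7 ± 3.39 to 43.4 ± 2.05 CPM (0.29, adjusted p = 0.0046, edgeR). SLC30A1, the plasma membrane exporter and a textbook MTF1 target, was at 143.2 ± 14.6 and 155.5 ± 5.35 CPM and did not pass the test (0.12, SE 0.07, adjusted p = 0.155), although it did without replicate 3 (0.20, adjusted p = 0.00646).

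Of 11 tested SLC39 genes, which bring zinc into the cytosol, 2 rose and 1 fell, against 23.9% and 22.7% of all genes tested. Their median was 0.02, and without replicate 3 the count that rose was 4. SLC39A8, a plasma membrane importer of zinc and manganese, rose from 29.9 ± 7.81 to 45.9 ± 7.75 CPM (0.64, adjusted p = 0.00108), and SLC39A6 by 0.34 (adjusted p = 0.000672, edgeR). SLC39A7, which releases zinc from the endoplasmic reticulum, fell by 0.29 (adjusted p = 0.0149), which was not called without the replicate block (adjusted p = 0.0604) or without replicate 5 (adjusted p = 0.0527). SLC39A10, which MTF1 is known to repress, was at 202.8 ± 16.8 and 205.6 ± 20.9 CPM and did not pass the test (adjusted p = 0.854), and its sign changed with the scaling.

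Of 11 tested genes of copper handling, 2 rose and 2 fell, against 23.9% and 22.7% of all genes tested, with a median of -0.12. These counts depended on the scaling, with 1 higher and 6 lower under upper-quartile scaling and 1 higher and 7 lower under scaling to library size alone, and voom called 2 higher and 4 lower. ATP7B, a copper-exporting ATPase, rose from 70.3 ± 11.4 to 126.2 ± 5.88 CPM without overlap between groups (0.86, adjusted p = 0.000445, edgeR). ATOX1, the chaperone that hands it copper, was higher by 0.16 (adjusted p = 0.0289), a call that 8 of 13 alternatives lost. COMMD1, which binds ATP7B, fell by 0.29 (adjusted p = 0.00213), and COX11, a copper chaperone of cytochrome oxidase, by 0.16 (adjusted p = 0.0123), a call that 3 of 13 alternatives lost.

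Genes of the glucocorticoid response were examined because glucocorticoids induce metallothioneins and the medium held hydrocortisone. The list held receptor targets and also parts of the pathway, among them NR3C1, FKBP4 and HSD11B2. NR3C1, the receptor gene, named after its values were seen, did not pass the test (log2 fold change -0.04, adjusted p = 0.53, edgeR). Of 11 tested genes, 3 rose and 4 fell, against 23.9% and 22.7% of all genes tested, with a median of -0.12. FKBP5, a classic glucocorticoid receptor target, fell from 21.7 ± 4.69 to 10.7 ± 1.85 CPM without overlap (-1.01, SE 0.09, adjusted p = 0.000151), and CEBPD, a transcription factor, from 85.2 ± 23.3 to 44.7 ± 5.13 CPM (-0.90, adjusted p = 0.00187, edgeR). The others to fall, named after their values were seen, were parts of the pathway. They were HSD11B2, an enzyme that inactivates cortisol (-0.78, adjusted p = 0.00755), and FKBP4, a co-chaperone of the receptor (-0.31, adjusted p = 0.00345, edgeR). HSD11B2 was low, at 0.87 ± 0.26 CPM in control. ERRFI1, a feedback inhibitor of the EGF receptor, rose by 0.76 (adjusted p = 6.41e-05), and DUSP1, a MAP kinase phosphatase, by 0.72 (adjusted p = 0.00505), which was not called without the replicate block (adjusted p = 0.0873). SGK1, a kinase gene and well-known receptor target, named after its values were seen, rose from 55.7 ± 10.3 to 70.8 ± 6.42 CPM (0.36, SE 0.08, adjusted p = 0.00968), higher in 5 of 5 pairs. TSC22D3 (0.02, adjusted p = 0.779) and PER1 (-0.19, adjusted p = 0.159), which are also well-known targets, did not pass the test, and the sign of TSC22D3 changed with the scaling.

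Of 12 genes of metal, oxidative and heat stress, 3 rose and 2 fell, against 23.9% and 22.7% of all genes tested. Their median was 0.07. The count that rose was 1 under upper-quartile and library size scaling, without the replicate block and without replicate 1 or 4, and 5 without replicate 2. TXNRD1, a thioredoxin reductase, rose from 223.2 ± 29.2 to 377 ± 54.2 CPM (0.76, adjusted p = 0.000309, edgeR), and HSPH1, a chaperone, was higher by 0.24 (adjusted p = 0.0316), which 7 of 13 alternatives lost. The remaining one to rise was HSF1, the heat shock transcription factor, by 0.11 (adjusted p = 0.0357), named after its values were seen. HMOX1, the haem-degrading enzyme induced by metals, fell by 0.79 (adjusted p = 0.00461, and 0.0537 without the replicate block), and GCLC, a glutathione synthesis enzyme, by 0.21 (adjusted p = 0.0123). HSPA1A, a heat shock protein that metals also induce, was at 54.8 ± 6.17 and 55.5 ± 3.13 CPM and did not pass the test (adjusted p = 0.732), and its sign also changed with the scaling.

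**Figure D4:**
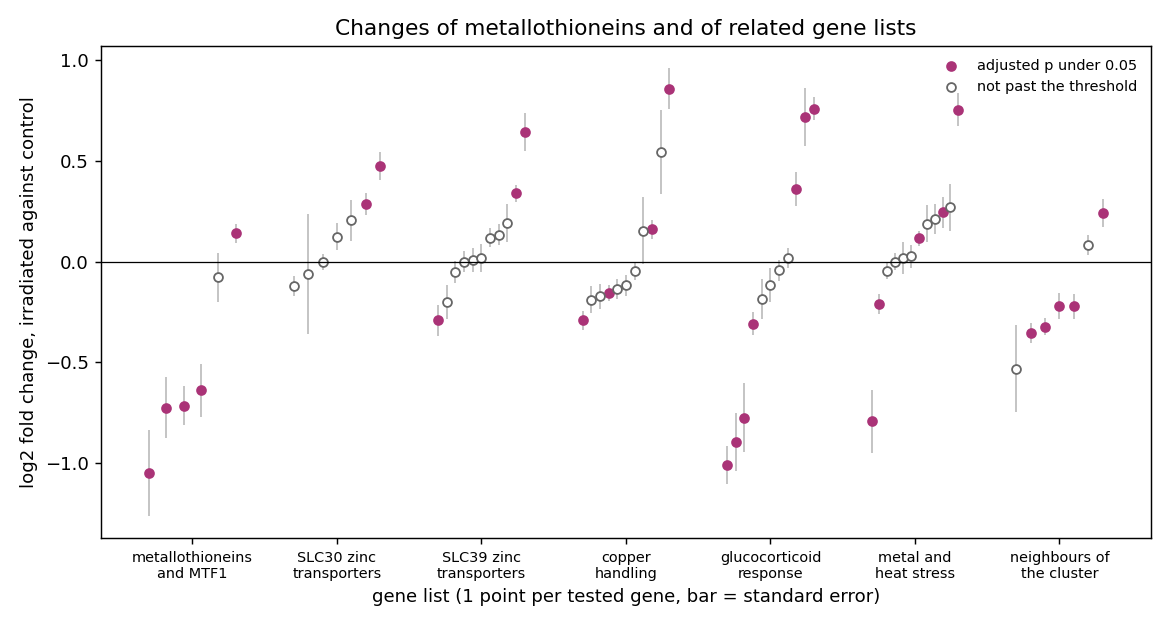
Log2 fold change of irradiated against control samples for each tested gene of 7 lists, with 1 point per gene sorted within its list and bars for the standard error. Filled points passed an adjusted p of 0.05; the metallothionein list has a median of -0.68, while the medians of the other lists shown lie between -0.22 and 0.12.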

How the data were processed

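Poly-A RNA of RPTEC/TERT1 cells was sequenced from 5 control and 5 irradiated samples, grouped and numbered as in the labels. The authors removed adapters and used STAR on GRCh38 both to align the reads and to count them per GENCODE gene. The deposited values are whole-number counts without normalisation. The annotation release is not given in the sources used here. Reads with several alignments are left out by such counting. The labels name a TruSeq library kit and the methods an NEBNext kit, and which was used is unclear.

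The main test was edgeR's quasi-likelihood test (edgeR 4.0.16 in R 4.3.3, TMM scaling). It ran on the 19006 genes whose counts over the 10 samples came to 200 or more, with replicate number as a block, as in the authors' model, and Benjamini-Hochberg adjustment over all 19006. A call was an adjusted p under 0.05. Same-numbered samples tended to deviate together (r from 0.22 to 0.51 for the 5 pairs, against -0.35 to 0.32 for unlike numbers). These ranges overlapped through number 2, at 0.22. Depth was 66269311 to 131555873 counts, and at this depth the precision of all members but MT1G is set by the spread between samples. On simulated counts for 19006 genes of this comparison, edgeR recovered 89% of genes changed by a log2 fold of 1. The simulation changed only 200 genes and held no replicate effect, whereas 46.6% of genes were called in the data. All called members but MT1X changed by less than a log2 fold of 1, so the 89% does not describe them. Alternatives were DESeq2 1.42.0, limma 3.58.1 (voom), other scalings and count filters, a model without the block, and each replicate left out in turn. The added one left out replicates 1 and 3 together, chosen after seeing the data.

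Gene symbols matched 61415 of 61587 identifiers, and coordinates came from GENCODE v44, with which 56987 identifiers were identical. No exon of a member lay under an exon of the opposite strand. The members and gene lists were chosen with earlier results of these data known. Named genes were all members, family members with at least 1 count, the called genes of each list with the largest changes (up to 2 each way), 7 textbook targets of MTF1 or the glucocorticoid receptor (SLC30A1, SLC39A10, FKBP5, TSC22D3, PER1, HMOX1 and HSPA1A), and the 3 genes nearest to each member. Other data of the study were not used here.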

Additional observations from a re-analysis of the deposited data

Results flagged for a closer look

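In each group of 5 samples, a value was singled out when the highest or lowest sample lay apart from the rest by more than 0.71 of the group's range. Of 76 groups of values examined, 8 were singled out, where chance gives about 3.8. All but FKBP5 were in control sample 3. MT1F was at 194.8 CPM there against 91.73 to 115.7 in the other controls, and MT1G at 0.6574 against 0.09777 to 0.2573. PER1 was at 23.72 CPM (others 13.72 to 16.52), DUSP1 at 65.2 (others 23.75 to 27.89), SLC39A7 at 304.9 (others 186.7 to 208.1) and ATOX1 at 18.66 (others 15.79 to 16.54). ATP7B was low in the same sample, at 50.25 CPM against 73.03 to 77.88. The remaining one was FKBP5 in irradiated sample 2, at 13.95 CPM against 9.366 to 10.36. Without replicate 3, MT1F was still called lower. The cause of these values was not tested.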

How the results depend on the processing

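MT1E, MT1F, MT1M and MT1X remained called lower in all 13 alternatives, with log2 fold changes of -0.76 to -0.50, -0.81 to -0.53, -0.85 to -0.64 and -1.23 to -0.80. The count of members called lower stayed at 4, or 5 where MT1G was tested (minimum of 1 count, filterByExpr) or MT2A was called (without replicate 1, and without replicates 1 and 3 together). The count called higher, 1 through MTF1, was 0 with DESeq2, a minimum of 1 count, filterByExpr, scaling to library size or to the upper quartile, no replicate block and without replicates 1 and 3 together, and 0 to 1 when replicates were left out in turn. The cause was not tested. Without the replicate block that pairs same-numbered samples, the log2 fold changes were -0.11 for MT2A, -0.68 for MT1E, -0.78 for MT1F, -0.75 for MT1M, -1.12 for MT1X, 0.14 for MTF1 and 0.59 for MT1L, and of the members only the call of MTF1 changed.

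Scaling by library size alone moved the share of all calls that were higher from 51.4% to 38%. Signs changed for 4 genes that were not called. SLC39A10 was at -0.015 with upper-quartile scaling, -0.058 with library size, -0.018 with a minimum of 1 count and -0.12 without replicates 1 and 3, and ranged from -0.044 to 0.066 when replicates were left out in turn. TSC22D3 was at -0.014, -0.057, -0.016 and -0.0051 under the same 4. HSPA1A was at -0.0066, -0.050 and -0.0090 under the first 3, and from -0.0090 to 0.077 with replicates left out. MT2P1 ranged from -0.24 to 0.011 with replicates left out, positive without replicate 5. Depth limits MT1G, with 191 counts, and the rarer family members.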
